A study of Mus musculus with 8 samples.

Results

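The imprinted growth network outside the Dlk1-Dio3 domain is taken here as 10 genes: H19, Plagl1, Cdkn1c, Peg3, Mest, Grb10, Ndn, Sgce, Peg10 and Slc38a4. They are found by gene symbol, and all 22 of their probes among the 55681 probes of the array were read. Of the 10 genes, 9 were bright enough to be tested, through 19 of the 22 probes, within a fit over 17093 features of which 12031 carry a symbol. Peg10 was the gene that could not be tested.

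Imprinted genes are expressed mainly from the copy inherited from 1 parent, and many of them act on growth before and shortly after birth. In mouse, a group of them is high in fetal and newborn tissue and declines together as growth slows, and both the zinc finger factor Plagl1 and the long non-coding RNA H19 have been reported to act on other genes of that group. The mimic applied here copies a microRNA of another imprinted domain, Dlk1-Dio3 on chromosome 12, where miR-127 is made from the strand opposite Rtl1. The arrays read total RNA and cannot tell the maternal from the paternal copy of a gene.

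The cells were dermal fibroblasts from the skin of newborn C57BL/6 mice, freed by enzymatic digestion, cultured in medium with serum and transfected in multi-well plates. In 4 samples (2, 4, 5 and 7) they received a mimic of miR-127-3p, a synthetic RNA that stands in for the mature microRNA, and in the other 4 (1, 3, 6 and 8) they received control oligonucleotides. Each sample was hybridised in a single dye to its own array, all on 1 slide. Strain, age and cell source are the same in both groups as far as the labels go. The labels name no animal, culture, dose or time after transfection, so the p-values below measure the spread between these samples, which may be technical. The treatment field of controls 3 and 6 names both kinds of oligonucleotide, while their titles and source names call them control.

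The number of probes well above background was 20756 on the lowest array and 23472 on the highest. Pearson correlations between arrays over all tested features were 0.985 to 0.994 within the miR-127-3p group, 0.984 to 0.992 within the control group and 0.960 to 0.981 between the groups. Mki67, the proliferation marker, had log2 levels of 3.04 to 3.38 on the miR-127-3p arrays and 5.05 to 5.41 on the control arrays, controls 3 and 6 included. Levels are given throughout as log2 signal minus the array's own 75th percentile, differences as miR-127-3p minus control on that scale, and a gene is called where the limma fit over all features gave an adjusted p under 0.05.

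Array miR-127-3p 5 and array control 3 stood apart from the other 6. The Y-linked gene Ddx3y had a log2 level of 2.21 on miR-127-3p 5 and 1.94 on control 3, and both it and the Y-linked Eif2s3y were well above background there. Xist, the RNA made from the inactive X chromosome, was at -4.61 on miR-127-3p 5 and -4.93 on control 3 and not well above background on either. On the other 6 arrays Ddx3y was at or below -4.21 and not well above background, and Xist lay between 0.94 and 1.63. Sex is not given in the labels. Each group holds 1 such array. The results on H19, Mest, Ndn and Slc38a4 are therefore given with both arrays, without them, and with Y-linked signal as a block in the fit. The last 2 were added after the data had been seen. Plagl1, Cdkn1c, Grb10, Peg3 and Sgce were not called in any of these fits through their brightest probe.

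The sequences that name the treatment and the microRNAs hosted by network genes are given first, with bases 2 to 8, the seed that guides target choice, in capitals. H19 is the host of miR-675 and Mest the host of miR-335. The sequences are from RefSeq (GRCm38.p6), written 5′ to 3′.
mmu-miR-127-3p: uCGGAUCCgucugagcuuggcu
mmu-miR-675-5p: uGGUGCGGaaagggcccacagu
mmu-miR-675-3p: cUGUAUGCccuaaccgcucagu
mmu-miR-335-5p: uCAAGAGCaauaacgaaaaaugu
mmu-miR-335-3p: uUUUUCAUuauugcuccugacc
The 5 seeds all differ from one another. The mature microRNAs themselves were not analysed here. miR-127-3p lies at chr12:109592888-109592909 on the plus strand, the miR-675 arms lie inside H19 at chr7:142577078-142577133 on the minus strand, and the miR-335 arms lie inside Mest at chr6:30741314-30741375 on the plus strand.

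The promoters of the 3 network genes that were called are shown because they are the tested members whose arrays separated by group. Each runs from 250 bases before to 50 bases after a RefSeq gene start (GRCm38.p6), and capitals mark TGCCGC or its reverse complement GCGGCA, the hexamer that the imprint-keeping zinc finger protein Zfp57 is known to bind when methylated.
Mest, chr6:30737800-30738099, plus strand: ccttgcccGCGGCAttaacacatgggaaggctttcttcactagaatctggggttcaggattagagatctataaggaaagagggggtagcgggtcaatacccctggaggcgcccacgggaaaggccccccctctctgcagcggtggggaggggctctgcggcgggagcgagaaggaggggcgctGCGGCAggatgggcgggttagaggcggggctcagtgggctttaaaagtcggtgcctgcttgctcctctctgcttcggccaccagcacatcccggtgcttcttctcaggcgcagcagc
Ndn, chr7:62348027-62348326, plus strand: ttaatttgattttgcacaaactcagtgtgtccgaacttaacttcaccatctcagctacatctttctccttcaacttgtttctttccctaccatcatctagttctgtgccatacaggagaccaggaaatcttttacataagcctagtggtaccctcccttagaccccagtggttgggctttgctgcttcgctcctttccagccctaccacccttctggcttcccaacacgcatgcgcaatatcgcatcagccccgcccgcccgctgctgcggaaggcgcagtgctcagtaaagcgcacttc
Slc38a4, chr15:97055907-97056206, minus strand: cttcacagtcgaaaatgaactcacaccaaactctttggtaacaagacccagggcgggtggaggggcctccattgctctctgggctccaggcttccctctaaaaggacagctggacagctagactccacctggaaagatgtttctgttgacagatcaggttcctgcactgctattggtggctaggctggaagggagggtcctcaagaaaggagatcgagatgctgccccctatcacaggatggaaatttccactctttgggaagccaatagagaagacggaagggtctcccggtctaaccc
The Mest window holds the hexamer 2 times and 17 CpG pairs, the Ndn window holds none and 11 CpG pairs, and the Slc38a4 window holds none and 5 CpG pairs. Over all 32851 RefSeq promoters of this length, 3813 (11.6%) hold the hexamer on either strand and the median is 7 CpG pairs. Of the 10 network genes 6 have at least 1 promoter in that table, and 3 of these (Plagl1, Mest and Grb10) have one with the hexamer. Mest has another window there that overlaps the one shown almost fully and one further upstream, at chr6:30733256-30733555, with no hexamer and 8 CpG pairs. Slc38a4 has further windows there, at chr15:97031164-97031463 and chr15:97020310-97020609, each with no hexamer and 5 CpG pairs. H19, Cdkn1c, Sgce and Peg10 had no entry there. A match is a description of the letters, and the letters of these windows were not set against the measurements.

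Among the 9 tested network genes, Mest and Slc38a4 fell and Ndn rose with the mimic, and 6 did not pass the test. Over all features, 34.2% were called in either direction (15.9% higher, 18.3% lower), so 3 of 9 (33.3%) is a share near the background and is not a result about the network. The miR-127-3p mean was lower in 6 of the 9 genes and higher in 3. The median log2 difference was -0.22 over the 9 genes and 0.02 over all features. The groups' arrays did not overlap in the same 3 genes, again 33.3% against 34.2% of all features. Fewer cells of a type and less RNA per cell cannot be told apart in these cultures, for this and every difference below.

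**Figure D1:**
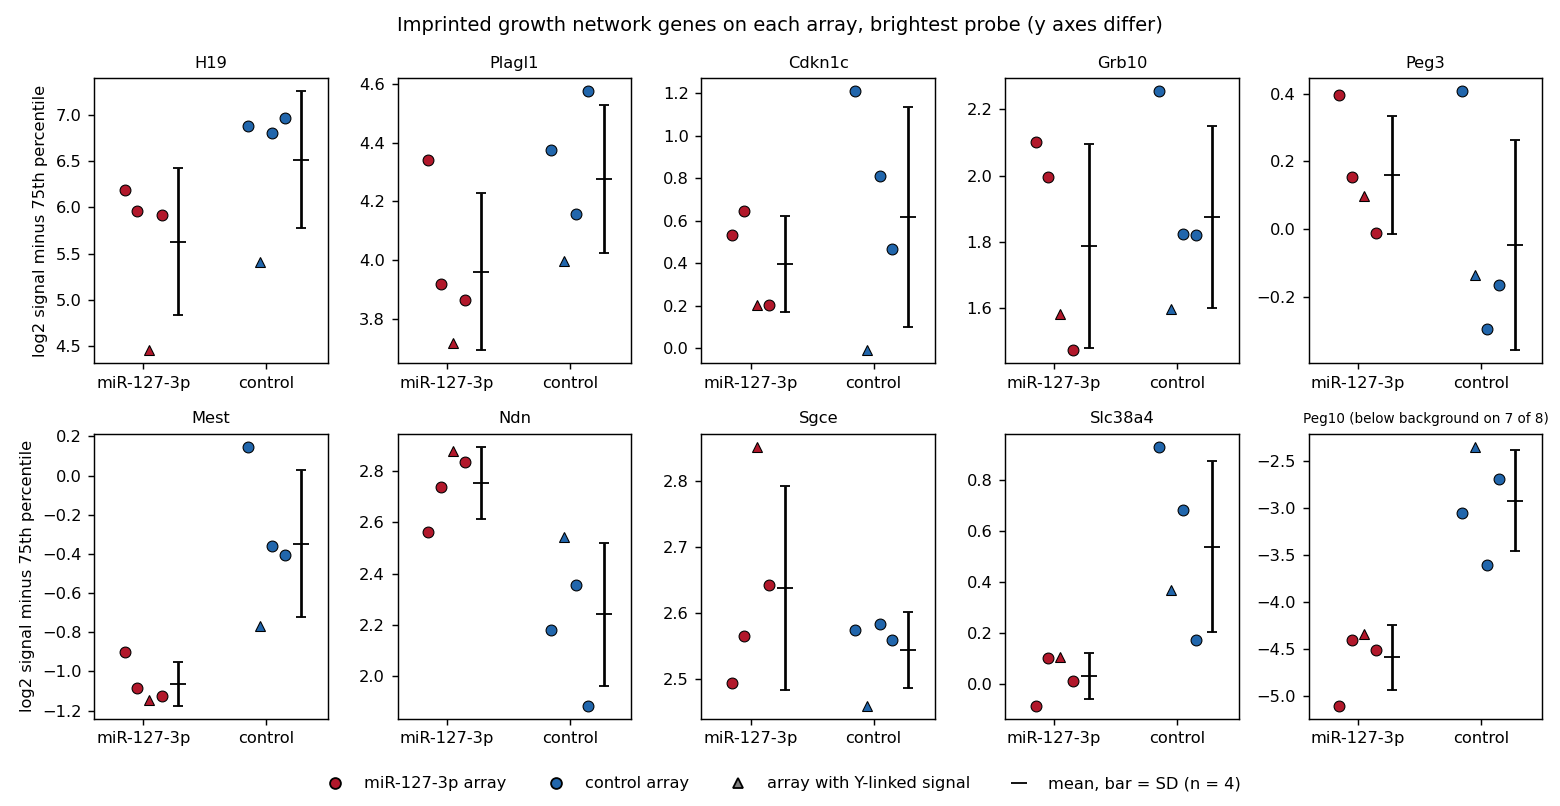
Each panel is 1 network gene and each point 1 array, with the log2 signal minus the array's 75th percentile on the y axis, miR-127-3p arrays on the left in red and control arrays on the right in blue; bars are mean and SD (n = 4). Triangles are the 2 arrays with Y-linked signal. The groups separate for Mest, Ndn and Slc38a4, and for H19 each triangle lies well below the circles of its own group. They also separate for the Peg10 probe, which was well above background on only 1 of the 8 arrays and was not tested.

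H19 is a long non-coding RNA that is among the most abundant imprinted transcripts of the newborn. Its brightest probe had log2 levels of 6.19, 5.96, 4.46 and 5.92 on miR-127-3p arrays 2, 4, 5 and 7. On control arrays 1, 3, 6 and 8 its log2 levels were 6.88, 5.41, 6.80 and 6.96. The arrays of the groups overlapped, because control 3 lay below 3 of the miR-127-3p arrays, and miR-127-3p 5 was the lowest of the 8. The log2 difference was -0.88 ± 0.46 (SE, n = 4 arrays each; 95% interval -1.93 to 0.16) with an adjusted p of 0.170, so H19 was not called. Its spread within groups, a pooled SD of 0.77 on the log2 scale, was larger than that of 97.4% of the features with a symbol.

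The 2 arrays with Y-linked signal were the lowest of their groups at H19. Between those 2 arrays H19 had a log2 level of 4.46 in miR-127-3p 5 and 5.41 in control 3. Among the other 6 arrays it lay between 5.92 and 6.19 with the mimic and between 6.80 and 6.96 in controls. H19 was thus lower with the mimic in both kinds of array, although 1 kind has a single array per group. Leaving both arrays out gave a log2 difference of -0.86 (adjusted p = 0.00167), and keeping all 8 with Y-linked signal as a block gave -0.88 (adjusted p = 0.000278). In these 2 fits 34.1% and 38.9% of all features were called.

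The position on the slide moved with the same pair, since control 3 lies in slide row 1 and miR-127-3p 5 in row 2. The log2 difference of H19 was -0.07 within row 1 and -1.70 within row 2, with adjusted p of 0.943 and 0.113. Without control 3 alone it was -1.25 (adjusted p = 0.0401), and without miR-127-3p 5 alone it was -0.49 (adjusted p = 0.340). Skeletal muscle and adipocyte markers were also low on these 2 arrays: 7 of 9 tested muscle markers and 4 of 7 tested adipocyte markers were lowest of their group on both, against 10.7% of all features with a symbol and 4 of the 9 network genes. The count was 4 of 12 for dermal fibroblast markers and 3 of 9 for macrophage and leukocyte markers. It was 1 of 7 for keratinocyte markers, 1 of 7 for melanocyte and Schwann markers, and 0 of 3 for endothelial markers. Tnnt3, a muscle troponin gene, had a log2 level of -1.35 on miR-127-3p 5 and -1.22 on control 3, against 0.81 to 1.98 on the other 6 arrays, while the muscle actin gene Acta1 was highest on those 2 arrays, at 6.10 and 6.14. Summed on the linear scale, the adipocyte markers gave 11.6 on miR-127-3p 5 and 14.0 on control 3, against 27.7 to 38.5 on the other 6, and the muscle markers, Acta1 included, 76.1 and 79.8 against 44.4 to 98.7. The part of these cells in the level of H19 was not tested. Whether what sets these 2 arrays apart also sets their level of H19 was not tested.

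All 6 probes of H19 gave the same picture. Each was well above background on all 8 arrays, and the log2 differences ran from -0.98 to -0.88 with adjusted p of 0.107 to 0.170 in a fit over every probe, in which 33.8% of 21964 probes were called. In the fit with Y-linked signal as a block, in which 38.2% of all probes were called, and in the fit without those 2 arrays, in which 33.6% were, each of the 6 was called lower. With no filter on dim probes, when 7.48% of all probes were called, none of the 6 was called. The probes read the same RNA and are not independent of one another.

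Igf2, the growth factor next to H19 on chromosome 7 that shares its imprinting control, showed the same pair of low arrays. Its log2 levels were -0.17, -0.03, -1.30 and 0.01 on the miR-127-3p arrays and -0.38, -1.37, -0.40 and -0.45 on the control arrays. The log2 difference of Igf2 was 0.28 ± 0.34 (SE, adjusted p = 0.556), 0.35 without the 2 arrays (adjusted p = 0.0248) and 0.28 with the block (adjusted p = 0.0335). Its direction was not stable: Igf2 ranged from -0.22 (within slide row 2) to 0.78 (within row 1) over 23 other settings, was 0.04 without control 3 and 0.59 without miR-127-3p 5, and was called in the 2 settings on Y-linked signal alone. Dlk1, a growth gene of the Dlk1-Dio3 domain, was likewise lowest on those 2 arrays, at 6.05 in miR-127-3p 5 and 5.64 in control 3. The matrix proteoglycan gene Dcn was lowest only within each group on those 2 arrays, at 6.18 and 4.76 in that order. Controls 1 and 6, at 5.68 and 5.96, lay below miR-127-3p 5, while control 8, at 6.33, lay above it. The log2 difference of Dcn between the groups was 1.18 ± 0.36 (SE, adjusted p = 0.0324). Dcn was called in 16 of 23 other settings, with log2 differences from 0.53 to 1.83. Igf2 and Dlk1 were singled out after their values had been seen.

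**Figure D2:**
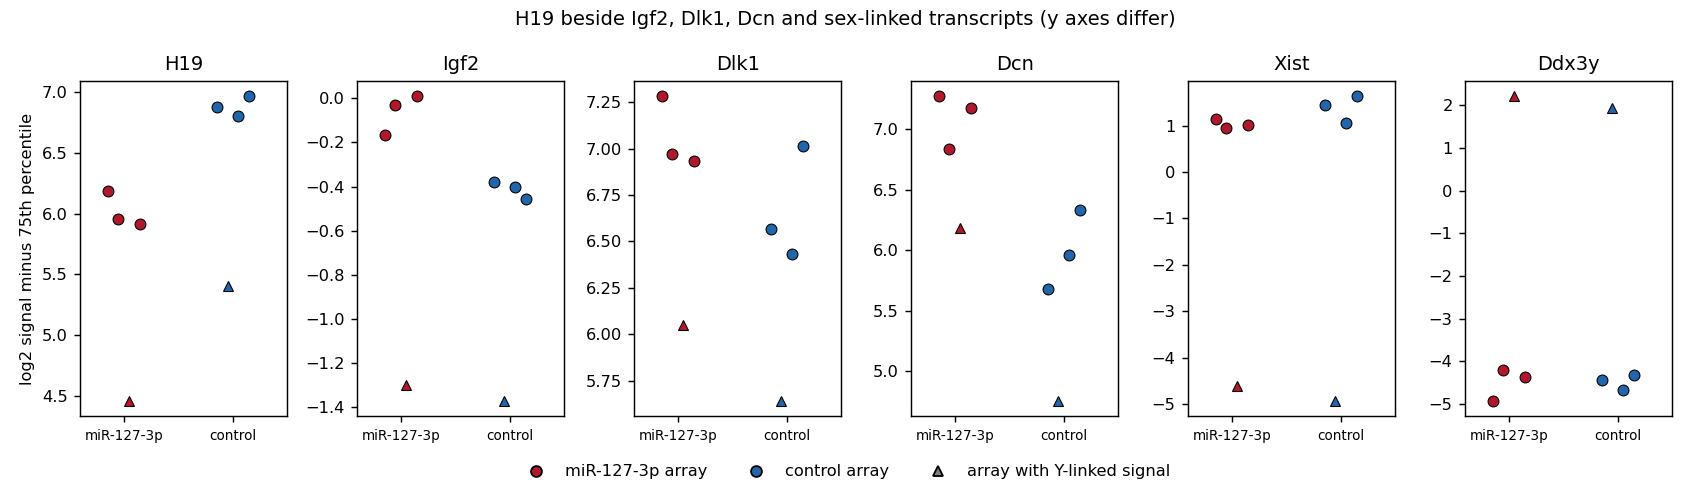
H19 is set beside Igf2, Dlk1, Dcn, Xist and Ddx3y, with log2 signal minus the array's 75th percentile on each y axis and 1 point per array, miR-127-3p left and control right. The triangles, miR-127-3p 5 and control 3, are the arrays with high Ddx3y and low Xist, and they are the lowest of their group in H19, Igf2, Dlk1 and Dcn.

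Plagl1 encodes a zinc finger transcription factor that halts cell growth and, in mouse, acts on other imprinted genes. Its brightest probe had log2 levels of 4.34, 3.92, 3.72 and 3.87 on the miR-127-3p arrays and 4.38, 4.00, 4.16 and 4.58 on the control arrays. The groups overlapped through miR-127-3p 2. The log2 difference was -0.32 ± 0.17 (SE, adjusted p = 0.177). The 4 probes of Plagl1 disagreed. One more probe gave a log2 difference of -0.28 and another of -0.06, neither of them called, while the fourth (A_55_P2153251) was called higher in the fit over every probe, with a log2 difference of 0.44 ± 0.11 (SE, adjusted p = 0.0170). That probe had log2 levels of -0.89, -0.86, -1.30 and -0.89 on the miR-127-3p arrays and -1.39, -1.49, -1.38 and -1.45 on the control arrays, so the groups did not overlap. Without the 2 arrays with Y-linked signal its log2 difference was 0.53 (adjusted p = 0.00410), and with the block it was 0.44 (adjusted p = 0.00569). It was not called without miR-127-3p 4 (0.40, adjusted p = 0.0523) or with no filter on dim probes (0.44, adjusted p = 0.0939). With normexp background correction its log2 difference was 0.22 (adjusted p = 0.177). Which transcripts of Plagl1 the 4 probes read was not analysed here.

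Of the genes that restrain growth, Cdkn1c encodes the cyclin-dependent kinase inhibitor p57. Its log2 levels were 0.53, 0.64, 0.20 and 0.21 on the miR-127-3p arrays and 1.21, -0.01, 0.81 and 0.47 on the control arrays. Control 3 lay below all 4 miR-127-3p arrays and controls 1 and 6 above all of them, so the control range enclosed the other group. The log2 difference was -0.22 ± 0.25 (SE, adjusted p = 0.518), with a 95% interval of -0.78 to 0.34.

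Grb10, an adaptor that binds the insulin and IGF1 receptors and dampens their signal, had log2 levels of 2.10, 2.00, 1.58 and 1.47 on the miR-127-3p arrays. On the control arrays its log2 levels were 2.25, 1.60, 1.82 and 1.82. The ranges overlapped over most of their length. The log2 difference was -0.09 ± 0.18 (SE, adjusted p = 0.750), with a 95% interval of -0.51 to 0.33.

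Ndn encodes necdin, a protein of the MAGE family that holds back proliferation and is lost in Prader-Willi syndrome. Its log2 levels were 2.56, 2.74, 2.88 and 2.83 on the miR-127-3p arrays and 2.18, 2.54, 2.36 and 1.89 on the control arrays. All 4 miR-127-3p arrays lay above all 4 controls, though miR-127-3p 2 lay just above control 3. Ndn rose 1.43-fold, a log2 difference of 0.51 ± 0.15 (SE, adjusted p = 0.0261). Without the 2 arrays with Y-linked signal the log2 difference was 0.57 (adjusted p = 0.0237), and with them as a block it was 0.51 (adjusted p = 0.0137). Within slide row 1 the log2 difference was 0.29 and within row 2 it was 0.73, neither of them called. The call was lost when any of control 1, miR-127-3p 4, miR-127-3p 5 or miR-127-3p 7 was left out, with adjusted p of 0.0584 to 0.0667. Its adjusted p was also over the threshold when slide column was the block (0.0534) and with no filter on dim probes (0.0889).

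Mest encodes a membrane protein related to hydrolases, is expressed from the paternal copy and promotes fetal growth. Its brightest probe, spotted 10 times per array, had log2 levels of -0.90, -1.08, -1.15 and -1.13 on the miR-127-3p arrays. On the control arrays its log2 levels were 0.15, -0.77, -0.36 and -0.40. All 4 miR-127-3p arrays lay below all 4 controls, with control 3 the lowest control. Mest fell to 0.608 of the control level, a log2 difference of -0.72 ± 0.18 (SE, adjusted p = 0.0143).

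Repeated spots of the Mest probe within an array had SDs of 0.069 to 0.225 on the log2 scale. Without the 2 arrays with Y-linked signal the log2 difference of Mest was -0.83 (adjusted p = 0.00992), and with the block it was -0.72 (adjusted p = 0.00794). With normexp background correction it was -0.40 (adjusted p = 0.0250). Within slide row 1 it was -0.68 and not called (adjusted p = 0.239), and within row 2 it was -0.75 (adjusted p = 0.0350). Mest stayed called whichever single array was left out, with log2 differences between -0.86 and -0.55. A second probe of Mest gave a log2 difference of -0.72 as well but was well above background on 2 of the 4 miR-127-3p arrays and was not called (adjusted p = 0.123). With Y-linked signal as a block this second probe was called lower (-0.72, adjusted p = 0.0347). Without those 2 arrays it was not called (-0.68, adjusted p = 0.0925). With normexp background correction its log2 difference was -0.16 (adjusted p = 0.473). The third probe was not well above background on any array.

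Peg3, a paternally expressed zinc finger gene linked to growth and maternal care in mouse, had log2 levels of 0.40, 0.15, 0.10 and -0.01 on the miR-127-3p arrays. On the control arrays its log2 levels were 0.41, -0.13, -0.29 and -0.17. Control 1 was the highest of the 8 arrays, and the other 3 controls lay below all miR-127-3p arrays. The log2 difference was 0.21 ± 0.16 (SE, adjusted p = 0.357), and that of the second probe was 0.25 (adjusted p = 0.337). The second probe was well above background on 4 of the 8 arrays.

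Slc38a4 encodes a transporter of neutral amino acids that is imprinted in mouse, with the paternal copy active. Its log2 levels were -0.09, 0.10, 0.10 and 0.01 on the miR-127-3p arrays and 0.93, 0.37, 0.68 and 0.17 on the control arrays. The miR-127-3p arrays lay close together and below every control, the nearest being control 8. Slc38a4 fell to 0.704 of the control level, a log2 difference of -0.51 ± 0.16 (SE, adjusted p = 0.0380). Without the 2 arrays with Y-linked signal the log2 difference was -0.59 and no longer called (adjusted p = 0.0558), and with them as a block it was -0.51 (adjusted p = 0.0432). The call also went when any array other than control 3 or control 8 was left out (adjusted p of 0.0566 to 0.0896), and with slide row as a block (adjusted p = 0.0522), when slide column was the block (adjusted p = 0.0690), with the array median in place of the 75th percentile (adjusted p = 0.0596) or no filter on dim probes (adjusted p = 0.117). Within slide row 1 the log2 difference was -0.64 and within row 2 it was -0.37, neither of them called.

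Sgce and Peg10 are neighbours on chromosome 6 that start close together on opposite strands and are both expressed from the paternal copy. Sgce encodes epsilon-sarcoglycan, a membrane protein of the dystrophin-associated complex, and Peg10 is a gene derived from a retrotransposon that the placenta needs. Sgce had log2 levels of 2.49, 2.57, 2.85 and 2.64 on the miR-127-3p arrays and 2.57, 2.46, 2.58 and 2.56 on the control arrays. miR-127-3p 5 and 7 lay above every control, and the other miR-127-3p arrays lay within the control range. The log2 difference was 0.09 ± 0.09 (SE, adjusted p = 0.468), with a 95% interval of -0.12 to 0.31.

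The brighter probe of Peg10 was well above background on 1 of the 4 control arrays and on none of the miR-127-3p arrays. Its log2 signals were -5.10, -4.40, -4.33 and -4.51 on the miR-127-3p arrays and -3.05, -2.35, -3.60 and -2.68 on the control arrays. These are signals at the edge of what the array can measure, and no fold is given, because the mean of the control arrays did not exceed the lowest signal that counted as well above background on the miR-127-3p arrays. The second probe of Peg10 was not well above background on any array.

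**Figure D3:**
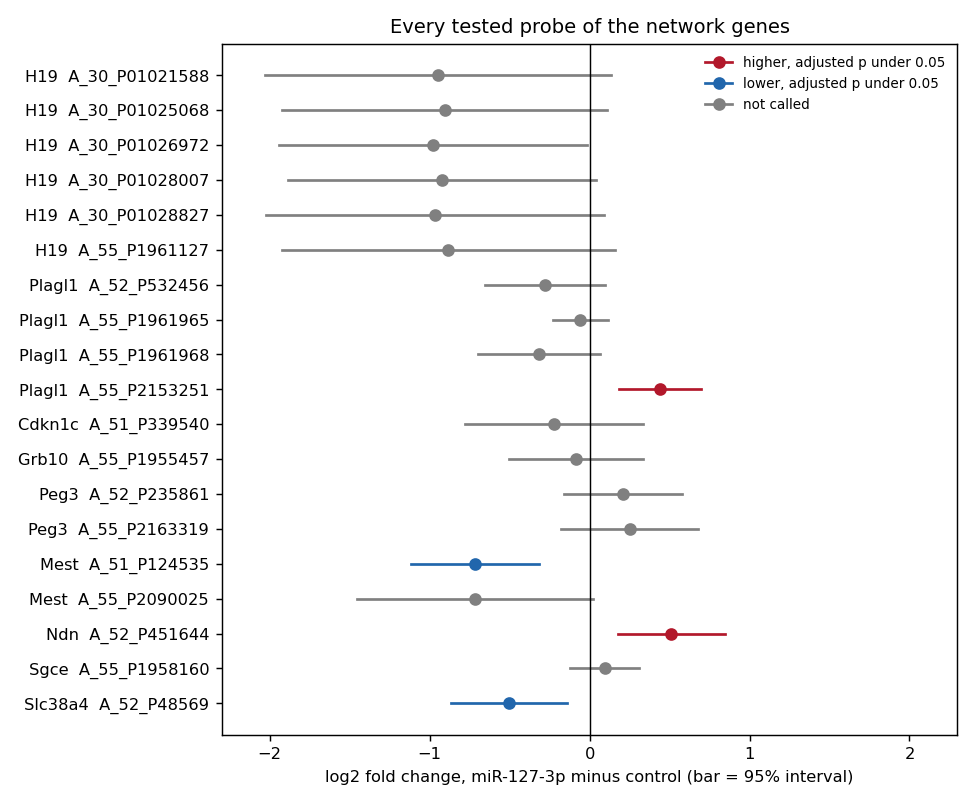
Each of the 19 tested probes of the network genes is 1 row, with its log2 difference (miR-127-3p minus control) on the x axis and its 95% interval as a bar, from the fit over every probe. The 6 probes of H19 lie together between -0.98 and -0.88 with wide intervals, the 4 probes of Plagl1 lie on both sides of 0, and 4 probes are coloured as called.

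Control 3 was the lowest control in 6 of the 9 tested genes and control 1 the highest control in 5. On the mimic side miR-127-3p 5 was the lowest in 4 of the 9 and miR-127-3p 2 the highest in 5. Between the 2 arrays with Y-linked signal, the miR-127-3p array was 0.38 lower than the control array in Mest on the log2 scale, 0.33 higher in Ndn and 0.27 lower in Slc38a4. Those are the same directions as over all arrays.

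**Figure D4:**
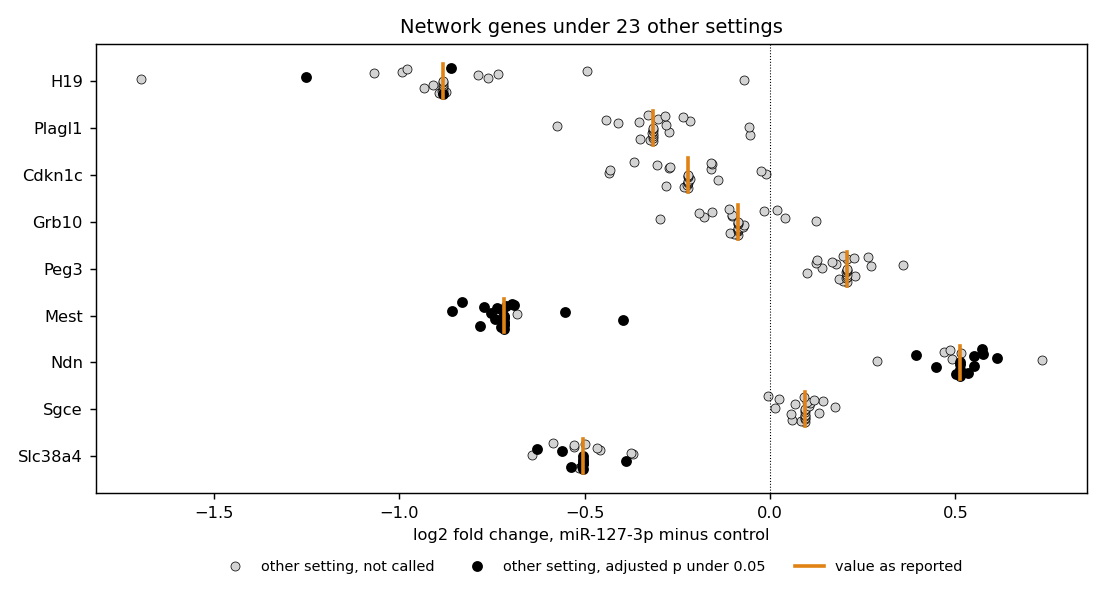
Each row is 1 tested network gene and each point the log2 difference (miR-127-3p minus control) under 1 of 23 other settings, black where the adjusted p was under 0.05; the orange bar is the value reported above. Mest was called in 22 of the 23, Ndn in 15, Slc38a4 in 10 and H19 in 3, and the points of Grb10 and Sgce lie on both sides of 0.

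The features whose log2 values over the 8 arrays were most like those of Ndn, among 12030 compared by Pearson correlation, were Irgq (0.993), Gdpd5 (0.990) and Flacc1 (0.986). After the group means were taken out they were Mapk6 (0.992), Gdpd5 (0.985) and Tmsb10 (0.982). For Mest they were Mrps17 (0.983), Ppp4r3b (0.980) and Srbd1 (0.979), and after the group means were taken out Homez (0.987), Pcdh18 (0.971) and Maf (0.966). These are descriptions over only 8 arrays, and the log2 values before the group means were taken out hold the group difference. Gdpd5 is named both times for Ndn, and no feature is named both times for Mest. For H19, added after its values had been seen, they were Ghitm (0.982), Pbdc1 (0.972) and Csrp3 (0.968), and after the group means were taken out Pgm5 (0.997), Ghitm (0.996) and Lpl (0.992); Lpl is one of the adipocyte markers, and Csrp3 is known from striated muscle.

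Among 33 other genes of the imprinted network 18 were tested, of which 5 rose and 3 fell (44.4% called, against 34.2% of all features), with a median log2 difference of 0.13 against 0.02 for all features. Blcap, which encodes a small membrane protein, rose by a log2 difference of 0.64 (adjusted p = 0.000945). Slc22a18, a maternally expressed transporter gene near Cdkn1c on chromosome 7, rose by 2.20 (adjusted p = 0.00124). Igf2r, the receptor that carries IGF2 to the lysosome, rose by 0.70 (adjusted p = 0.00332), and Zrsr1 by 0.62 (adjusted p = 0.00670). Gnas, which encodes the stimulatory G protein subunit, had a log2 difference of 0.21 (adjusted p = 0.0580).

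Of 43 chromosomal neighbours of the 10 genes 27 were tested, of which 6 rose and 3 fell (33.3% called, against 34.2% of all features), with a median log2 difference of -0.04. Tfpi2, a protease inhibitor gene near Sgce and Peg10 on chromosome 6, rose by a log2 difference of 2.76 (adjusted p = 7.13e-05). Fignl1, a DNA repair gene near Grb10 on chromosome 11, fell by 1.78 on the log2 scale (adjusted p = 8.36e-05), and Phactr2, near Plagl1 on chromosome 10, fell by 0.76 (adjusted p = 0.00619). Cd81 on chromosome 7, which encodes a tetraspanin, rose by 0.56 (adjusted p = 0.0130). Slc22a18 is counted in this list as well. Tssc4 rose by 0.38 (adjusted p = 0.00761), Cobl by 0.55 (adjusted p = 0.0157) and Pon3 by 0.60 (adjusted p = 0.0274). Lsp1, named to complete the called neighbours, fell by 0.35 on the log2 scale (adjusted p = 0.0309).

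In the list of insulin and IGF signalling 21 of 23 genes were tested, of which 6 rose and 3 fell (42.9% called, against 34.2% of all features), with a median log2 difference of 0.12. Igf2bp1, which encodes a protein that binds Igf2 and H19 RNA, fell by 0.88 on the log2 scale (adjusted p = 0.000879). The ligand gene Igf1 rose by 1.28 (adjusted p = 0.00908) and Igfbp5, a secreted IGF binding protein, by 0.91 (adjusted p = 0.00898). Akt1, the kinase downstream of the receptors, had a log2 difference of 0.06 (adjusted p = 0.672).

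Of 25 factors that write, read or keep imprints 23 were tested, of which 15 fell and 1 rose (69.6% called, against 34.2% of all features), with a median log2 difference of -0.43. Uhrf1, which brings the maintenance methyltransferase to newly copied DNA, fell by 1.95 on the log2 scale (adjusted p = 1.28e-05). The chromatin remodeller gene Hells fell by 1.89 (adjusted p = 9.49e-05), Dnmt1, the maintenance methyltransferase itself, by 0.99 (adjusted p = 0.000515), and Cbx5, a reader of silent chromatin, by 0.64 (adjusted p = 0.000738). Several of these genes are known to follow DNA replication, and Mki67 had a log2 difference of -2.03 (adjusted p = 1.48e-05) on the same arrays; its part in these falls was not tested. Mbd3 and Ehmt2, of a methyl-CpG binding family and a histone methyltransferase pair, fell by 0.43 and 0.27 (adjusted p = 0.00322 and 0.0335). The list's 1 gene that rose was Mbd1, a methyl-CpG binding protein that H19 RNA has been reported to recruit to Igf2, Slc38a4 and Mest in mouse. Its brightest probe had a log2 difference of 1.60 (adjusted p = 0.00360), while its other probes had log2 differences of -0.0028 (adjusted p = 0.988) and 0.47 (adjusted p = 0.0716). Mbd1 is named because of its value.

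Among relatives and partners of the network proteins 29 of 35 genes were tested, of which 9 rose and 6 fell (51.7% called, against 34.2% of all features), with a median log2 difference of 0.12. Cdkn1a, the p53-driven inhibitor p21 of the same family as Cdkn1c, rose by a log2 difference of 2.38 (adjusted p = 4.04e-05). Ephx1, a hydrolase gene, rose by 1.89 (adjusted p = 2.27e-05) and the receptor gene Acvrl1 by 1.24 (adjusted p = 0.000371). Smc6, a subunit of the complex that also holds the MAGE protein Nsmce3, fell by 0.88 on the log2 scale (adjusted p = 0.000896).

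In the list of growth arrest and quiescence 17 of 19 genes were tested, of which 4 rose and 5 fell (52.9% called, against 34.2% of all features), with a median log2 difference of -0.04. Beside Cdkn1a, which the list shares, Gas6, a secreted ligand first found in arrested cells, rose by a log2 difference of 1.14 (adjusted p = 0.000489). Cdkn2c and Cdkn2d, inhibitors of the kinases CDK4 and CDK6, fell by 2.07 and 1.32 on the log2 scale (adjusted p = 0.000246 and 0.000182). Cdkn1c and Ndn, which belong to the same functional group, thus stood beside genes of both directions.

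**Figure D5:**
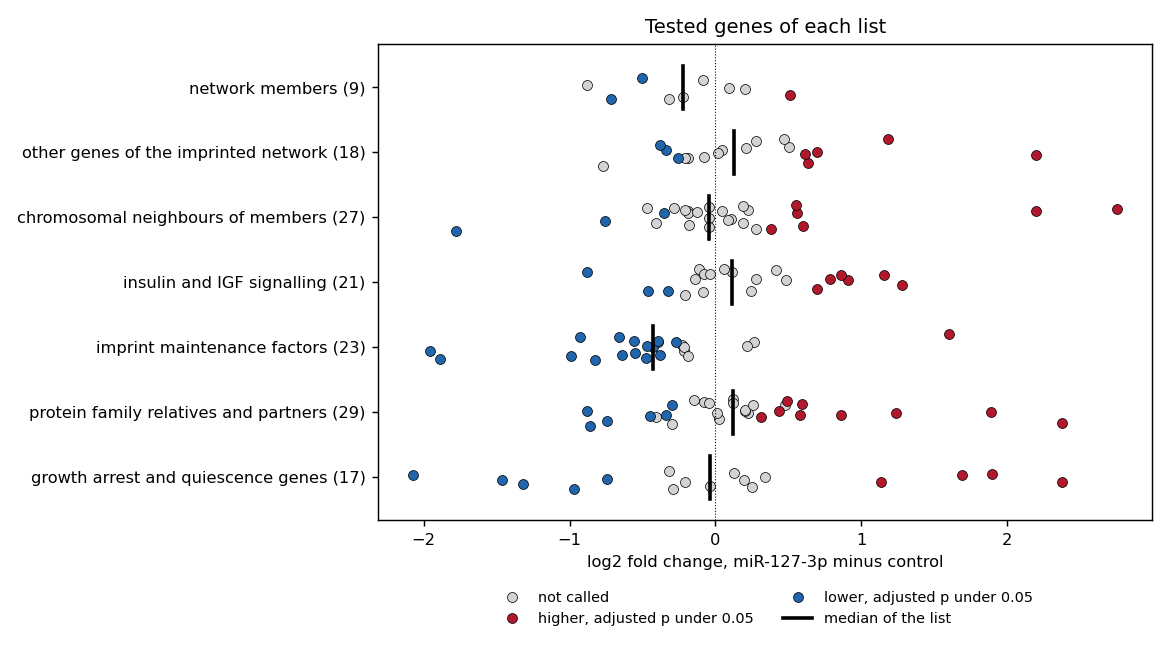
Each point is 1 tested gene, with its log2 difference (miR-127-3p minus control) on the x axis, and each row is 1 list with its number of tested genes; black bars are medians. Genes higher with the mimic at an adjusted p under 0.05 are red and lower ones blue. The list of imprint maintenance factors lies furthest to the left, with a median of -0.43, and the 9 network genes have a median of -0.22.

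The arrays matched their label of fibroblasts: all 12 dermal fibroblast markers were tested, with 2 higher and 2 lower (33.3% called, against 34.2% of all features). They had a summed level of 1852 to 2037 on miR-127-3p arrays and 1638 to 1900 on control arrays, in units of each array's 75th percentile. Macrophage and leukocyte markers moved with the groups. Among the 9 of them that were tested 8 were higher with the mimic (88.9% called, against 34.2% of all features). They summed to 63.9 to 74.9 with the mimic, against 36.1 to 45.3 on the control arrays. Ptprc, which defines leukocytes, was not well above background on any array. Skeletal muscle markers summed to 44.4 to 80.4 on miR-127-3p arrays and 51.0 to 98.7 on control arrays. The myoblast genes Myf5 and Pax7 were not well above background on any array, and Myod1 was so on 2. Myog and Mymk, of the same list, were bright enough to be tested, with log2 differences of -1.09 and -0.13, neither of them called. The tested keratinocyte, melanocyte and Schwann, and endothelial markers had 1 of 7, 2 of 7 and 1 of 3 higher and none lower. Those are 14.3%, 28.6% and 33.3% called, against 34.2% of all features. Without the 2 arrays with Y-linked signal, when 34.1% of all features were called, 4 of the 7 keratinocyte markers were higher. No adipocyte or skeletal muscle marker was called in the limma fit or had an unadjusted p under 0.05, but 1 muscle marker was lower without those 2 arrays (Myog). With the block, when 38.9% of all features were called, 2 muscle markers were lower (Myog and Myh3). Adipocyte markers summed to 11.6 to 35.6 on miR-127-3p arrays and 14.0 to 38.5 on control arrays. The part of these cells in the levels of Mest, Ndn and Slc38a4 was not tested.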

How the data were processed

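The members and the gene lists were chosen with earlier results of these data known. Per the file headers, the authors read each scan with Feature Extraction (version 11.5.1.1), whose processed intensity per spot is background-subtracted but not normalized between arrays. The deposited value table of the series, from GeneSpring 14.9.1 per the series' design text, holds log2 values relative to each array's 75th percentile and served as an alternative. Here control and outlier spots were left out, spots of a probe averaged, and each array's 75th percentile subtracted from log2 intensity. Probes were named through RefSeq accessions (28331 probes). A probe was tested if well above background on at least 4 of 8 arrays, and the brightest probe stood for its gene. The comparison used lmFit and eBayes from limma (version 3.58.1, R version 4.3.3), two-sided, with p-values adjusted by Benjamini-Hochberg over the 17093 features and a threshold of 0.05; this fit was tested on simulated data. No spot was treated as saturated. The number of arrays limits the precision.

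Alternatives were normexp (offset 50, on the median signal and median background, since the files hold no mean signal), quantile and median scaling, the deposited values, other filters, the mean of a gene's probes, slide row and column, eBayes with a trend and robust, array weights, leaving out each array, and Y-linked signal. Named genes are all members, up to 4 tested genes of each list with the smallest p, up to 2 with the brightest probe, each imprinted neighbour that was called, and the 3 features most like the member with the largest called rise and fall. Marker genes were named by their role, and a gene outside the rule is said to be so.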

Additional observations from a re-analysis of the deposited data

Results flagged for a closer look

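For each network probe that was well above background on any array, in each group of 4 arrays (40 groups in all), the array farthest from the others was set against Dixon's critical value, which chance passes in about 1 of 20 groups. There were 11 such values, and 10 of them belong to H19, whose probes read the same RNA. The array was miR-127-3p 5 or control 3 each time, the 2 arrays with Y-linked signal, and always the lowest of its group. On probe A_55_P1961127 of H19 the log2 level was 4.46 in miR-127-3p 5 and 5.41 in control 3. On probe A_30_P01021588 it was 2.91 and 3.90 in that order, on A_30_P01026972 it was 1.04 and 1.91, and on A_30_P01028007 it was 0.843 and 1.61. On probes A_30_P01025068 and A_30_P01028827 miR-127-3p 5 alone passed, with log2 levels of 2.81 and 1.06. The remaining value was the log2 level of -1.30 in miR-127-3p 5 on probe A_55_P2153251 of Plagl1, where the other miR-127-3p arrays lay between -0.89 and -0.86. No explanation was tested for these values.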

How the results depend on the processing

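Of 17093 features 5851 were called, against 3657 with no filter on dim probes, 1759 within slide row 1 and 1611 within slide row 2, where each group has 2 arrays, and 4320 to 5789 when single arrays were left out. Of the network genes 3 were called, against 1 with slide column as a block, 0 within slide row 1 (limma) and 1 within slide row 2, and 1 to 4 when single arrays were left out. Of their 19 tested probes 4 were called in the fit over every probe (21.1%, against 33.8% of all probes), against 1 with no filter on dim probes (the dim probe of Peg10; 7.48% of all probes called), 9 without the 2 arrays with Y-linked signal (33.6% of all probes), 11 with that signal as a block (38.2%), and 1 to 10 when single arrays were left out; the 10 came without control 3 (33.3% of all probes), when all 6 probes of H19 were called. Within slide row 1 1 of the 9 network genes had an unadjusted p under 0.05.

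Over 23 other settings H19 ranged from -1.70 to -0.07 on the log2 scale, Mest from -0.86 to -0.40, Ndn from 0.29 to 0.73 and Slc38a4 from -0.64 to -0.37, with no change of direction in these 4; Grb10 ranged from -0.30 to 0.12 and Sgce from -0.0047 to 0.18. The cause of the calls lost was not tested. No paired analysis was possible because the samples are numbered 1 to 8 across the groups and share no replicate number. Signal near background limits Peg10, every probe of Mest but the brightest, and 1 probe of Peg3.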
